A study of Mus musculus with 36 samples.

Results

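The 35 mouse olfactory receptor genes described here are those whose GENCODE vM21 symbol lies in the numbered series from Olfr161 to Olfr209 and carries no suffix. They make up 35 of the 1107 receptor genes named in this way and lie on chromosome 16. Ribosome-bound RNA was recovered from olfactory epithelium with an antibody to phosphorylated ribosomal protein S6 and sequenced in 36 libraries, 12 groups of 3 mice. All mice were wild-type C57BL/6J males of 8 weeks, housed singly and odor-free for 4 h before a 90 min exposure to filter paper carrying 10 µL of odorant, or to blank paper in controls. Each of 3 sets, which the labels call the batch, held its own control group: the AD set had acetophenone, decanal and an acetophenone-decanal mixture, the OC set octanal, cis-3-hexenol and an octanal-cis-3-hexenol mixture, and the FM set a floral fragrance, a mint fragrance and a floral-mint mixture. The binary mixtures were 1:1 in the same volume, so each component was given in a smaller amount than alone; the make-up of the fragrances is not given in the sources used here.

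Olfactory receptors are odorant-binding G protein-coupled receptors, and a mature olfactory sensory neuron expresses a single receptor gene from the whole family. Odorant binding activates the G protein Golf, adenylyl cyclase 3 and a cyclic nucleotide-gated channel, and neurons that have fired phosphorylate ribosomal protein S6. Precipitating the phosphorylated ribosomes therefore enriches messages of activated neurons, the receptor they express among them. Receptor genes sit in clusters of related copies along the chromosomes, and 1 receptor usually responds to several odorants.

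Library totals ran from 16.04 M to 26.39 M counts. All 8 markers of mature olfactory sensory neurons were detected in every group, at a summed 7108 to 26340 CPM (counts scaled to a common library size), and in every odor group their lowest library stood above the highest control of the same set. In tissue of this kind more cells with a receptor and more RNA per cell cannot be told apart. Red blood cell markers summed to 78080 to 92660 CPM in OC controls against 7454 to 28130 in the 9 odor libraries of that set. FM controls stood at 30320 to 32940, below floral (38370 to 74080) and mint libraries (33560 to 47320), while floral-mint libraries overlapped them (28250 to 49790). AD controls stood at 15520 to 20990, above acetophenone libraries (2567 to 13120) and below decanal (39360 to 42140) and AD mixture libraries (30670 to 37210). Their part in the results below was not tested.

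Along the chromosome the members formed 3 runs, a new run being set where the next member starts over 1.0 Mb away. Olfr161 stood alone, Olfr164 to Olfr171 formed a run of 8, and Olfr172 to Olfr209 a run of 26 that includes the polymorphic pseudogenes Olfr192 and Olfr197. The runs were unlike in sequence. Translated proteins of the run of 8 shared a median 38.6% of residues with those of the run of 26 (192 pairs, range 34.6 to 43.5), against 52.7% among themselves and 57.8% within the run of 26. Linking proteins at 60% identity gave 6 groups that never joined 2 runs: Olfr161; Olfr164 and Olfr165; Olfr166, Olfr167 and Olfr168; Olfr169, Olfr170 and Olfr171; 7 members around Olfr181 and Olfr195; and 17 around Olfr183 and Olfr191.

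Many members are near copies. A total of 20 had a transcript at least 95% identical over at least 200 bases to that of another receptor gene, and for 18 that gene was itself a member (for example Olfr166 with Olfr168, Olfr169 with Olfr170 and Olfr171, Olfr191 with Olfr193, Olfr194 with Olfr203). Expected counts share out reads that match more than 1 gene, which leaves the split inside these sets uncertain. Each such set of members was also summed to 1 value. Copies that are not members were left out of the sums. They were Olfr200-ps1 for Olfr198, Olfr189-ps1 for Olfr191 and several other receptor genes for Olfr204. Reads shared with them were not checked.

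The DNA beside the gene starts is shown for the pairs that were most alike among members and that rose together, Olfr169 with Olfr170 (floral and mint) and Olfr191 with Olfr193 (mint and octanal). The windows are RefSeq's for GRCm38.p6, 250 bases before to 50 after the annotated start on the minus strand, at chr16:19566832-19567131, chr16:19606617-19606916, chr16:59086432-59086731 and chr16:59110584-59110883 in the order shown. Capitals mark bases that differ from, or have no partner in, the other member of the pair.
Olfr169: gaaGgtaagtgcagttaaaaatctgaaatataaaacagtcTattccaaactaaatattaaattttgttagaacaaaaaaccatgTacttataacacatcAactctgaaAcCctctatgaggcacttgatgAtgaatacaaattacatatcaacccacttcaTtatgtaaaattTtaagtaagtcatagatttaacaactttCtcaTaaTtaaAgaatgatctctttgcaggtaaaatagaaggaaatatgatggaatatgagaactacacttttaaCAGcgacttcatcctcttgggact
Olfr170: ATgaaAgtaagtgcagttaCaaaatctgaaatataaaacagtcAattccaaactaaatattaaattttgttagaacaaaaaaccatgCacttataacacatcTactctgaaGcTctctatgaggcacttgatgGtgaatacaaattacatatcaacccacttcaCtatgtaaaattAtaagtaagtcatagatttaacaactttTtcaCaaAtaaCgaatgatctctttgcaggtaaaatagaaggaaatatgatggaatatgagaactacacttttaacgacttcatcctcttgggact
Olfr191: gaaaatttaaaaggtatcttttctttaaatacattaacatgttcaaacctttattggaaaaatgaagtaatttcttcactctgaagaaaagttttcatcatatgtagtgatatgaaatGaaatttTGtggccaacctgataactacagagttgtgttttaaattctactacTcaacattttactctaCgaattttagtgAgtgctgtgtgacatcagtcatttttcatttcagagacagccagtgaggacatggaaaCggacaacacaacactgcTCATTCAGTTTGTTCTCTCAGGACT
Olfr193: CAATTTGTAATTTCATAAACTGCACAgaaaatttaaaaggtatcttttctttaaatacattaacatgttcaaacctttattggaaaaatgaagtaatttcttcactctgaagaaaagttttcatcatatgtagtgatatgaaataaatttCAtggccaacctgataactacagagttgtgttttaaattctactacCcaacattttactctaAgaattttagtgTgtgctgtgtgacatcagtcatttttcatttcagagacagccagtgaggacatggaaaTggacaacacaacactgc
The first pair was 94.7% identical, with 16 bases of each window in capitals. The second was 89.3% identical, with 32 in capitals, most of them at the ends, where the 2 annotated starts are offset. The median over the 325 pairs of the 26 members that have a window was 54.7%. In 17 of the 26 windows the annotated start is itself an ATG, so those windows lie beside the coding start.

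Of 26 member windows, 4 (15.385%) held the homeodomain core TAATTA, which reads the same on both strands, against 18.736% of 918 windows of other receptors and 5.291% of all 32851 windows. The members were Olfr169, Olfr172, Olfr196 and Olfr198. Olfr170, the near copy of Olfr169, held none. The core of O/E (Olf1/Ebf) sites was in no member window, in 0.545% of other receptor windows and in 0.904% of all windows.

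Without odor the members were expressed at very different levels. Levels were taken per kilobase of a gene's annotated exons, merged over all its transcripts. Averaged over the control groups of the 3 sets, Olfr166 was highest (6.84 CPM per kb), followed by Olfr169 (6.48), Olfr168 (6.36), Olfr171 (4.84) and Olfr183 (4.21). The leading members were not the same in each set. Olfr169 led in AD controls at 11.1 and stood at 3.51 in OC controls, below Olfr166 at 7.32 and Olfr183 at 4.61. In FM controls Olfr171 was highest at 5.95. At the other end, Olfr161, Olfr172 and Olfr197 never passed the filter on low counts, so nothing is said of their response; Olfr194 passed in the AD and FM sets but not in the OC set. That left 32, 31 and 32 members tested in the AD, OC and FM sets.

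The members took 4.01% ± 0.17 (SD, n = 3) of all receptor counts in FM controls, 10.7% ± 1.25 with the floral fragrance, 15.3% ± 1.202 with mint and 14.1% ± 0.39 with floral-mint. All 9 odor libraries of the FM set lay above its controls. In the AD set the share was 4.89% ± 0.31 in controls and lower in each odor group, at 3.42% ± 0.63 for acetophenone, 2.42% ± 0.23 for decanal and 2.44% ± 0.56 for the AD mixture. Its mean was 5.03% ± 0.24 in OC controls, 4.01% ± 1.16 for octanal, 5.30% ± 0.09 for cis-3-hexenol and 4.26% ± 0.06 for the OC mixture. For 3 libraries against 3 the smallest p of an exact permutation test is 0.10, so these shares are given as a description. A share also falls when counts on other receptors rise. All receptors took 0.37% of library counts in AD controls and 0.54% with acetophenone, and 0.24% in OC controls and 0.60% with octanal. Mean member counts were 4059 in AD controls, 4304 with acetophenone, 2201 with decanal and 2384 with the AD mixture. They were 2121 in OC controls and 4847 with octanal.

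**Figure D1:**
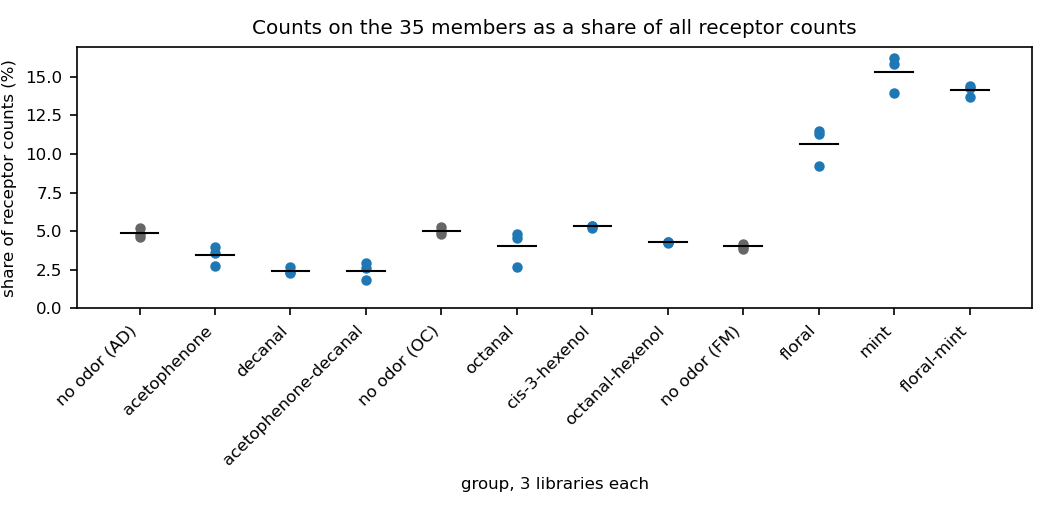
Share of all olfactory receptor counts that fell on the 35 members (vertical axis, percent) in each of the 36 libraries, by group; points are libraries, bars are means of 3, grey points are controls. The FM odor groups stand at means of 10.7% to 15.3% above controls at 4.01%, and the AD odor groups lie below their controls. A lower share need not mean fewer counts on members.

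Calls below are adjusted p under 0.05 in edgeR's quasi-likelihood test with Benjamini-Hochberg adjustment over all genes, and a change is log2 of odor over the controls of the same set ± its standard error. Over the 9 odors, 19 members were called higher at least once, 4 lower at least once, 3 of them in both directions, and 12 of the 32 tested members were never called. The shares called higher at least once were 59.4% of members tested, 40% of 890 other receptors and 30.2% of 20476 genes; those called lower at least once were 12.5%, 13.8% and 32.3%. Olfr183 and Olfr191 were each called higher with 5 odors.

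**Figure D2:**
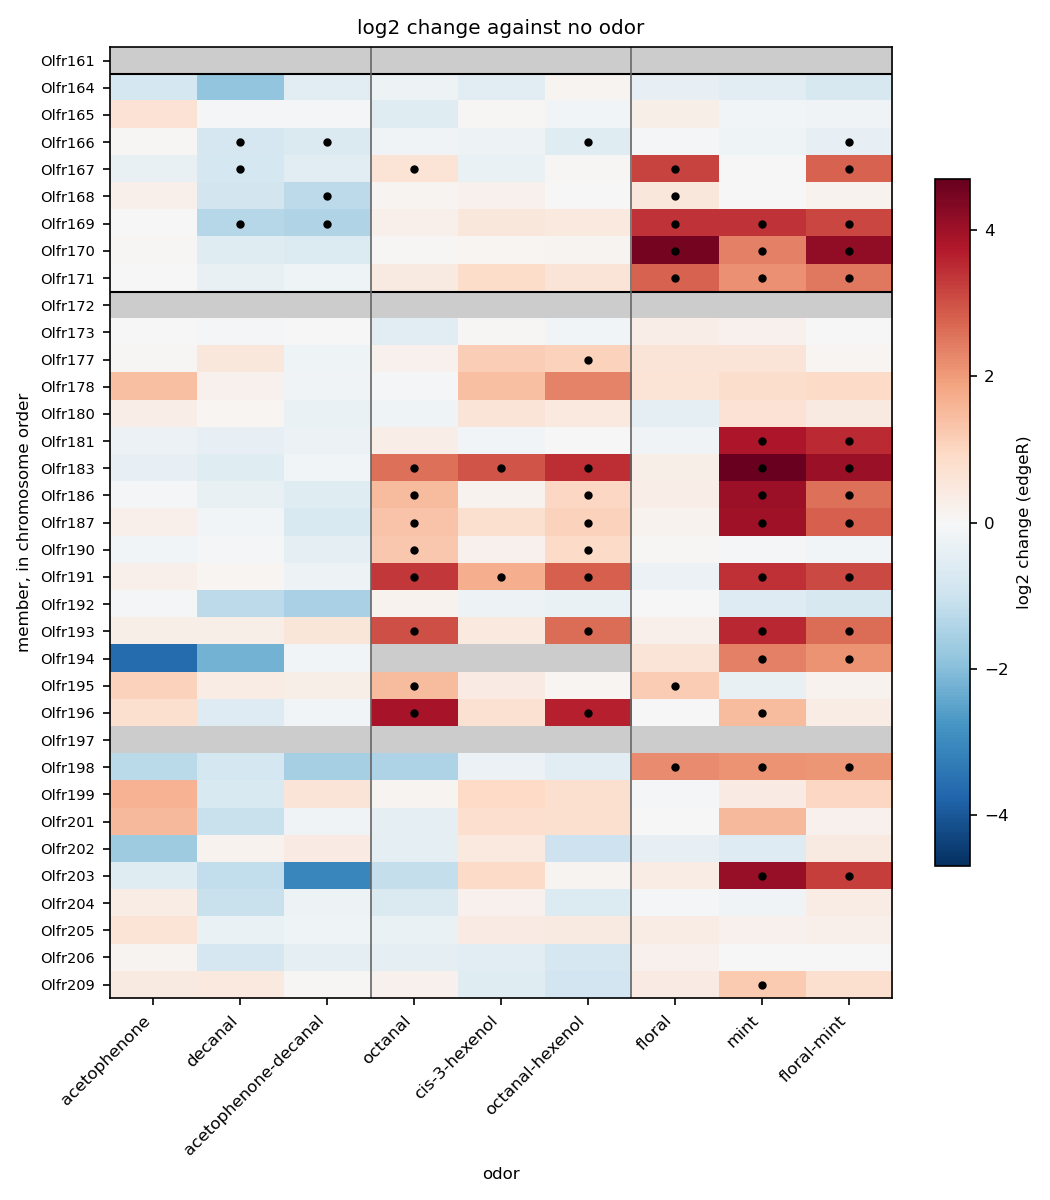
log2 change against no odor for each of the 35 members (rows, chromosome order, black lines between runs) and 9 odors (columns); dots mark calls at adjusted p under 0.05 and grey cells were not tested. Higher calls with floral were 62.5% of members tested in the run of 8 and 8.33% in the run of 26. With octanal they were 12.5% and 34.8%, and with mint 37.5% and 45.8%.

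The floral fragrance raised 7 of 32 members and lowered none (14.0% of all genes were called, 8.70% higher and 5.35% lower). Of the 8 members of the run Olfr164 to Olfr171, 5 were higher, with a median change of 1.66 over the 8 against -0.03 over all genes. In the run Olfr172 to Olfr209, 2 of 24 were higher, Olfr195 and Olfr198, with a median of 0.23. By DESeq2 6 were higher and none lower, and at unadjusted p under 0.05 the edgeR counts were again 7 and 0.

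Olfr167 measured 5.77, 6.497 and 7.42 CPM in controls, 64.8, 61.05 and 52.1 under floral, 6.61, 6.35 and 7.19 under mint and 43.3, 43.8 and 48.7 under floral-mint. All floral and floral-mint libraries were far above the others, and the mint libraries overlapped the controls. Its change was 3.18 ± 0.12 with floral (adjusted p = 5.12e-10) and 0.03 ± 0.12 with mint (0.901).

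Its neighbours Olfr169, Olfr170 and Olfr171 were high with both fragrances. Olfr169 measured 10.7, 12.2 and 12.9 CPM in controls, 144, 115 and 117 under floral, 110.0, 151 and 111 under mint and 99.6, 99.95 and 115 under floral-mint. Olfr170 measured 4.38, 5.26 and 6.499 in controls, 125, 91.95 and 148 under floral, 41.2, 22.75 and 18.6 under mint and 93.6, 87.0 and 110.2 under floral-mint. Olfr171 measured 7.23, 7.59 and 10.3 in controls, 56.0, 57.6 and 59.4 under floral, 36.1, 40.8 and 33.2 under mint and 43.2, 51.3 and 45.5 under floral-mint. Every odor library of the 3 genes was above every control. For Olfr169 the floral and mint libraries overlapped, while for Olfr170 and Olfr171 all floral libraries were above all mint libraries.

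The floral and mint changes, which share their controls, were 3.39 ± 0.14 and 3.38 ± 0.14 for Olfr169, 4.50 ± 0.28 and 2.36 ± 0.27 for Olfr170, and 2.79 ± 0.13 and 2.14 ± 0.13 for Olfr171 (adjusted p from 1.28e-09 to 5.32e-05). Summed to 1 value, the 3 near copies changed by 3.57 ± 0.14 with floral (adjusted p = 4.56e-10) and 2.88 ± 0.13 with mint (5.19e-09).

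Smaller floral changes were seen in 3 members. Olfr195 measured 4.06, 4.06 and 4.865 CPM in controls and 9.15, 8.78 and 11.7 under floral, a change of 1.19 ± 0.24 (adjusted p = 0.0052). Olfr198 measured 0.178, 0.714 and 0.239 in controls and 1.48, 1.79 and 2.05 under floral, a change of 2.22 ± 0.42 (0.00384) that read 3.06 without control 2. Olfr168 went from 12.1, 15.3 and 10.6 to 19.8, 17.6 and 18, a change of 0.54 ± 0.15 (0.0234). The groups did not overlap in any of the 3. The call of Olfr168 ended (adjusted p = 0.0617 to 0.097) without control 1, control 3, floral 1 or floral 3, and its sum with its near copy Olfr166 did not pass (0.229).

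The mint fragrance raised 14 of 32 members and lowered none, against 11.2% of all genes called (7.10% higher, 4.07% lower) and 94 higher and 13 lower of 815 other receptors tested. In the run Olfr172 to Olfr209, 11 of 24 were higher, with a median change of 1.02 against -0.07 over other receptors and -0.02 over all genes. In the run Olfr164 to Olfr171 the 3 near copies above were higher and the median was 0.02. Bone and cartilage markers, all detected, summed to 1694 to 1728 CPM with mint against 2265 to 3054 in controls, and their part in the result was not tested. DESeq2 called 13 higher and none lower, and at unadjusted p under 0.05 edgeR gave 16 and 0.

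Olfr183 was the most abundant member with mint. It measured 9.26, 8.375 and 8.37 CPM in controls, 10.1, 9.60 and 11.6 under floral, 193, 263 and 190.1 under mint and 156, 151 and 126 under floral-mint. The mint and floral-mint libraries lay far above both other groups. Its mint change of 4.63 ± 0.15, a 24.8-fold rise, had the second smallest p of all 19204 genes tested (adjusted p = 3.96e-11); its floral change was 0.27 ± 0.14 (0.207).

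A further 6 members of this run rose by 3.44 to 4.08 with mint (adjusted p at most 2.52e-06). Olfr181 measured 5.41, 6.72 and 4.625 CPM in controls, 4.44, 5.48 and 5.00 under floral, 62.35, 84.35 and 89.5 under mint and 77.4, 56.1 and 57.9 under floral-mint. Olfr187 measured 4.81, 6.497 and 3.35, then 5.65, 4.90 and 5.78, then 75.85, 80.2 and 73.7, then 41.25, 29.3 and 32.9 in the same order of groups. Olfr186 measured 3.67, 2.52 and 2.47, then 3.54, 4.16 and 3.08, then 39.9, 52.4 and 49.9, then 28.3, 10.6 and 13.7. In all 3 the controls and the floral libraries overlapped, and every mint library stood above both.

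The near copies Olfr191 and Olfr193 moved alike. Olfr191 measured 3.45, 4.32 and 2.91 CPM in controls, 2.80, 3.15 and 2.95 under floral, 33.6, 44.8 and 37.8 under mint and 36.8, 27.9 and 26.4 under floral-mint. Olfr193 measured 1.89, 2.78 and 1.475, then 2.06, 2.18 and 3.12, then 25.3, 24.97 and 21.2, then 16.0, 12.7 and 9.66. Their mint changes were 3.44 ± 0.17 and 3.54 ± 0.23, and 3.48 ± 0.18 for their sum (adjusted p = 1.11e-08). Olfr203, whose near copy is Olfr194, measured 0.214, 0.751 and 0.638 in controls, 0.506, 0.544 and 0.984 under floral, 10.4, 9.04 and 7.58 under mint and 6.21, 4.38 and 4.475 under floral-mint, a mint change of 4.08 ± 0.34. None of these mint libraries overlapped the controls.

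The remaining mint calls were smaller or at low levels. Olfr194 rose by 2.37 ± 0.50 (adjusted p = 0.00705), Olfr196 by 1.49 ± 0.30 (0.0056), Olfr209 by 1.22 ± 0.26 (0.00777) and Olfr198 by 2.10 ± 0.42 (0.00537; 2.94 without control 2). The 18 members not called ran from -0.62 to 1.53.

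**Figure D3:**
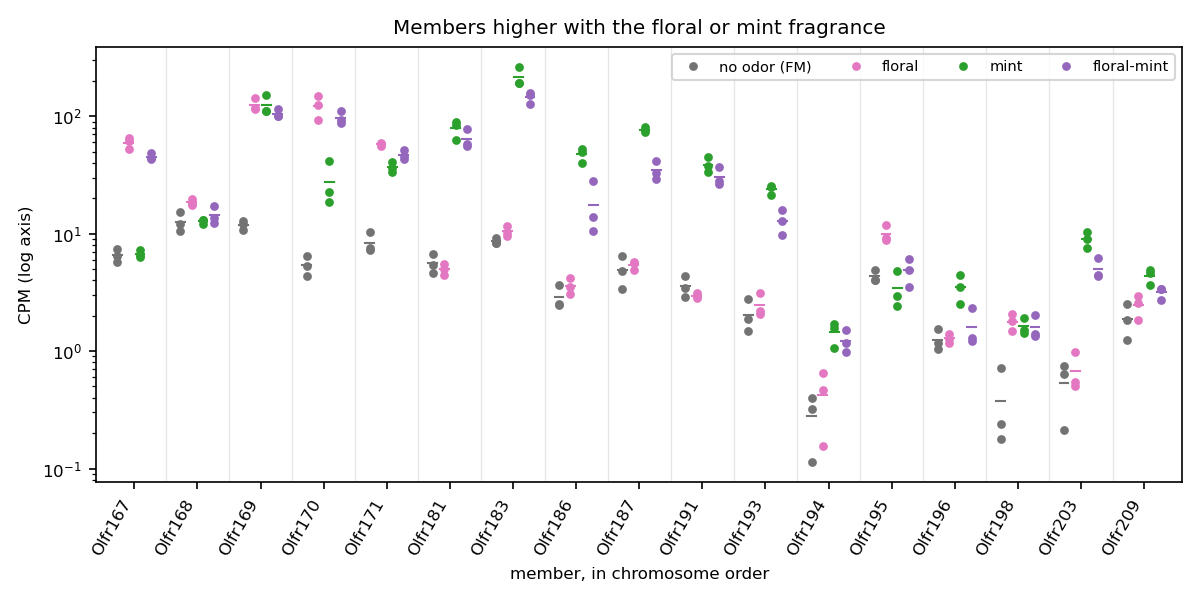
CPM on a log axis in each FM library for the 17 members called higher with the floral or the mint fragrance, in chromosome order; points are libraries and bars are means of 3. Olfr167 is high with floral and floral-mint, Olfr169 to Olfr171 with all 3 fragrances, and Olfr181 to Olfr193 with mint and floral-mint.

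Floral and mint were then compared with each other. Of all genes 0.354% were called, 68 in number, and 11 of these were members: 4 were higher with floral (Olfr167, Olfr170, Olfr171, Olfr195) and 7 higher with mint (Olfr181, Olfr183, Olfr186, Olfr187, Olfr191, Olfr193, Olfr203). The other receptors gave 49 calls among 815 tested (6.01%). The 5 genes with the smallest p of the 19204 tested were all members: Olfr183 (-4.37 ± 0.14, log2 of floral over mint, adjusted p = 1.52e-10), Olfr167 (3.15 ± 0.12, 7.02e-10), Olfr181 (-3.98 ± 0.18), Olfr191 (-3.70 ± 0.17) and Olfr187 (-3.82 ± 0.19). In the run of 8 the calls were 3 higher with floral and none higher with mint; in the run of 26 they were 1 and 7.

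Some members were not called. Olfr169 differed by 0.01 between floral and mint (95% interval -0.23 to 0.26), a gap of less than the spread between libraries. Its sum with its near copies Olfr170 and Olfr171 was higher with floral (0.695 ± 0.122, adjusted p = 0.0179). Olfr180, whose protein is 89.9% identical to that of Olfr181, was not called with mint: its libraries measured 5.27, 3.31 and 5.00 CPM against 2.96, 3.38 and 2.15 in controls, a change of 0.67 ± 0.24 that did not pass (adjusted p = 0.0921) beside 3.81 ± 0.18 for Olfr181. The difference between these 2 changes was not tested. The calls of Olfr171 (adjusted p = 0.0228) and Olfr195 (0.00683) were the least firm: that of Olfr171 ended without any 1 of floral 1, 2 or 3 or mint 1 or 3 (0.078 to 0.13), and that of Olfr195 without floral 3 (0.0505) or mint 2 (0.0513) and in the sum with its near copies Olfr178 and Olfr180 (0.366).

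**Figure D4:**
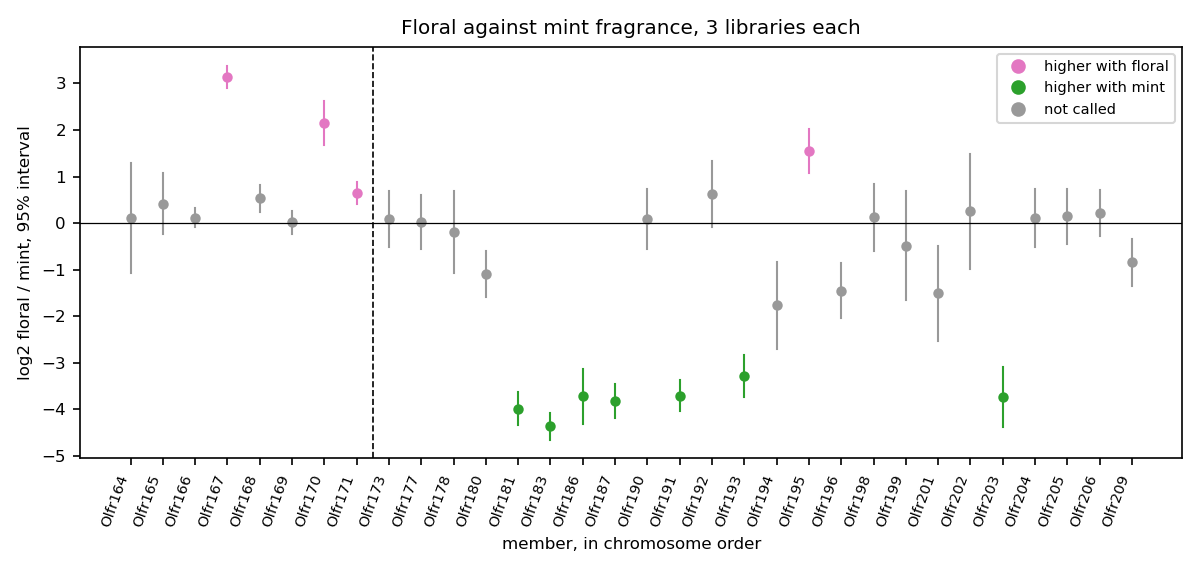
log2 of floral over mint with its 95% interval for the 32 members tested, in chromosome order, with 3 libraries in each group; the dashed line separates the runs of 8 and 26. Coloured points are calls: values to the left of the line reach 3.15 and values to the right reach -4.37.

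The floral-mint mixture raised 13 members and lowered Olfr166 (9.64% of all genes called, 6.42% higher and 3.22% lower). Its changes against the shared controls were 4.06 ± 0.14 for Olfr183, 2.79 ± 0.12 for Olfr167, 3.13 ± 0.14 for Olfr169, 2.48 ± 0.13 for Olfr171, 3.51 ± 0.18 for Olfr181, 3.09 ± 0.17 for Olfr191, 4.17 ± 0.27 for Olfr170 and 2.82 ± 0.18 for Olfr187. Olfr166 fell by 0.40 ± 0.10 (adjusted p = 0.0229) from 24.4, 21.8 and 21.2 CPM to 18.2, 16.0 and 16.7. That call ended without control 1 (0.124), mixture 2 (0.0942) or mixture 3 (0.08) and in the sum with Olfr168 (0.302), and the call of Olfr194 (2.12 ± 0.50) without control 1 (0.0544) or mixture 1 (0.0553). With near copies summed, 9 values were higher and none lower in place of 13 and 1, where called near copies merge into 1 value.

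Against floral alone the mixture had 7 higher members of 23 genes called (0.120% of all genes): Olfr183 (3.79), Olfr181 (3.68), Olfr191 (3.35), Olfr203 (2.89), Olfr187 (2.66), Olfr193 (2.38) and Olfr186 (2.29). This comparison shares the floral libraries with the one between floral and mint. Against mint alone, where 0.104% of genes were called, Olfr167 (2.76 ± 0.12, adjusted p = 8.57e-09) and Olfr170 (1.81 ± 0.24, 0.00334) were higher. Summed with its near copies Olfr169 and Olfr171, Olfr170 did not pass (0.40 ± 0.12, adjusted p = 0.624). Olfr187 was lower by 1.15 ± 0.16 on the log2 scale (0.00614; 0.0515 without mixture 3). DESeq2 gave 2 higher and 4 lower for this comparison.

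The interaction compares the mixture with the sum of the floral and mint log2 changes. It was below that sum for 7 members (3.62% of all genes called): Olfr169 (-3.64 ± 0.19, adjusted p = 4.76e-08), Olfr171 (-2.44 ± 0.17, 1.84e-06), Olfr170 (-2.69 ± 0.35, 0.00061), Olfr187 (-1.30 ± 0.25, 0.0114), Olfr183 (-0.84 ± 0.18, 0.0211), Olfr186 and Olfr198. For Olfr169 the mixture level was close to either fragrance alone, as the library values above show. Olfr181 (-0.14 ± 0.24) and Olfr191 (-0.09 ± 0.24) did not pass. The count was 4 without control 3, floral 3 or mixture 3: without these the calls of Olfr183, Olfr186 and Olfr198 ended (adjusted p = 0.0552 to 0.0956), those of Olfr186 and Olfr198 also without several others (up to 0.112).

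Octanal, a straight-chain aldehyde, raised 9 of 31 members and lowered none, while 32.3% of all genes were called (17.9% higher, 14.4% lower) and 175 of 828 other receptors rose and 24 fell. Members called higher were 29.0% of those tested. All but Olfr167 lay in the run Olfr172 to Olfr209, and at unadjusted p under 0.05 and by DESeq2 the counts were also 9 and 0. With near copies summed, Olfr194 and Olfr203 together were lower (-2.06 ± 0.72, adjusted p = 0.0381), on counts of 3, 5 and 14 for Olfr194 and 7, 10 and 0 for Olfr203 in controls against 0, 0 and 2 and 5, 0 and 3 under octanal. Octanal library 3 was the lowest of the 3 for each of the 9; without it the count was again 9.

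The largest octanal change was that of Olfr196. It measured 0.496, 1.12 and 0.853 CPM in controls, 18.1, 10.9 and 6.65 under octanal, 1.60, 1.07 and 1.38 under cis-3-hexenol and 9.50, 11.3 and 9.86 under the mixture. The octanal and mixture libraries stood above all the others, and cis-3-hexenol overlapped the controls. The octanal change was 3.86 ± 0.38 (adjusted p = 5.15e-06) and the cis-3-hexenol change 0.72 ± 0.41 (0.312).

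Its relatives Olfr191 and Olfr193 followed. Olfr191 measured 2.13, 2.42 and 2.165 CPM in controls, 35.7, 21.3 and 9.62 under octanal, 6.88, 7.64 and 7.24 under cis-3-hexenol and 18.2, 14.7 and 14.0 under the mixture. Olfr193 measured 1.93, 3.72 and 1.31, then 25.1, 23.98 and 8.59, then 3.44, 2.92 and 3.30, then 16.95, 16.2 and 10.35. Every octanal and mixture library of both genes was above its controls. The octanal changes were 3.31 ± 0.36 and 3.04 ± 0.40 (adjusted p = 1.16e-05 and 5.52e-05), and 3.18 ± 0.35 for their sum.

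Olfr183 was raised by both components. It measured 12.8, 11.0 and 9.58 CPM in controls, 124, 52.15 and 26.3 under octanal, 117, 78.0 and 66.2 under cis-3-hexenol and 136, 119 and 117 under the mixture. The octanal libraries were the most spread of the 4 groups. Changes were 2.60 ± 0.40 (adjusted p = 0.000191; 1.80 without octanal 1), 2.97 ± 0.40 (0.000775) and 3.47 ± 0.41 (2.21e-05), and octanal against cis-3-hexenol gave -0.37 ± 0.37 (95% interval -1.08 to 0.35).

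Olfr186, Olfr187, Olfr195, Olfr190 and Olfr167 rose less with octanal. Olfr186 measured 4.31, 6.26 and 6.10 CPM in controls and 21.6, 15.8 and 8.755 under octanal, a change of 1.48 ± 0.27 (adjusted p = 0.000839). Olfr187 went from 2.83, 3.01 and 2.30 to 10.5, 6.20 and 4.11, a change of 1.35 ± 0.31 (0.00348). Olfr195 went from 6.15, 7.85 and 4.79 to 26.3, 17.1 and 9.73, a change of 1.498 ± 0.34 (0.00347), and stood at 6.82, 5.37 and 7.97 under the mixture. The control and octanal libraries of these 3 did not overlap. Olfr167 went from 7.98, 9.27 and 9.25 to 15.5, 16.5 and 9.67, a change of 0.65 ± 0.22 (0.0329) that did not pass without any single library other than octanal 3 (0.0607 to 0.122) or when libraries were scaled to the median receptor gene (0.145). Olfr190 changed by 1.26 ± 0.33 (0.008), with octanal library 3, at 2.864, below the highest control at 2.925.

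Cis-3-hexenol, a green-leaf alcohol, raised Olfr183 and Olfr191 of 31 members and lowered none (5.74% of all genes called, 2.58% higher and 3.16% lower). The change of Olfr191 was 1.69 ± 0.35 (adjusted p = 0.0137), and its libraries did not overlap the controls. That call ended without control 1 (0.0522), control 3 (0.0627) or cis-3-hexenol 2 (0.0513). At unadjusted p under 0.05, 6 members were higher and none lower, and DESeq2 called 4 and 0. Scaling to the median receptor gene gave 2 higher and 2 lower.

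Against each other, octanal exceeded cis-3-hexenol for 7 members (21.0% of all genes called): by 3.14 ± 0.35 for Olfr196 (adjusted p = 4.9e-05), 2.58 ± 0.38 for Olfr193, 1.61 ± 0.32 for Olfr191, 1.30 ± 0.27 for Olfr186, 0.95 ± 0.22 for Olfr167, and also for Olfr190 and Olfr195. The call of Olfr190 ended without cis-3-hexenol 1, 2 or 3 or octanal 1 or 2 (0.0582 to 0.11), and that of Olfr195 without cis-3-hexenol 1 or 2 or octanal 1 (0.085 to 0.151) and in the sum with Olfr178 and Olfr180 (0.0914). In both genes the 2 groups overlapped. The sum of Olfr190 with its near copy Olfr192 passed (0.96 ± 0.31, adjusted p = 0.0368).

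The octanal-cis-3-hexenol mixture raised 8 members and lowered Olfr166 (32.5% of all genes called, 17.7% higher and 14.8% lower); scaled to the median receptor gene the split was 4 higher and 3 lower, and the median of all genes moved from -0.05 to -0.50. The firmest were Olfr196 (3.64 ± 0.38, adjusted p = 9.73e-06), Olfr183 (3.47 ± 0.41), Olfr191 (2.80 ± 0.35) and Olfr193 (2.64 ± 0.40). Olfr187 measured 6.33, 5.66 and 5.09 CPM with the mixture (1.07 ± 0.30, 0.0143) and Olfr186 11.2, 12.04 and 9.28 (0.97 ± 0.27, 0.0131), all above their controls.

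Olfr177 was called with the mixture alone, from 0.843, 1.59 and 1.84 CPM to 2.68, 3.36 and 3.00 (1.09 ± 0.35, adjusted p = 0.0272), while with cis-3-hexenol it measured 4.24, 2.51 and 2.82. Olfr190 measured 4.43, 5.035 and 5.26 under the mixture (0.90 ± 0.33, 0.0443). Olfr166 fell from 25.8, 41.6 and 28.9 to 20.8, 19.6 and 25.02 (-0.56 ± 0.19, 0.0349). The call of Olfr190 ended without any 1 of the 6 libraries (0.0645 to 0.113), that of Olfr166 without control 2 or 3 or mixture 1 or 2 (0.0508 to 0.237), and that of Olfr177 without control 1 or mixture 2 or 3 (0.0584 to 0.111). Summed with their near copies, Olfr166 (0.0805) and Olfr190 (0.0945) did not pass. The calls of Olfr186 and Olfr187 ended without control 1 (0.0611) and control 3 (0.0534).

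No member differed between the mixture and octanal alone in edgeR (0.0715% of all genes called; unadjusted p under 0.05 in 3 higher and 4 lower; DESeq2 0 higher and 1 lower). The nearest was Olfr195, lower in the mixture by 1.40 ± 0.33 (adjusted p = 0.488). Against cis-3-hexenol, Olfr196, Olfr193 and Olfr191 were higher in the mixture (2.92 ± 0.35, 2.17 ± 0.38 and 1.103 ± 0.32). Called higher were 9.68% of members, 13.6% of other receptors and 7.86% of all genes (12.9% of all genes in either direction). The call of Olfr191 ended without cis-3-hexenol 1, 2 or 3 or mixture 1 or 3 (0.059 to 0.117). The OC interaction called no member (0.0869% of all genes; unadjusted 0 higher and 4 lower; DESeq2 0 and 2). Its largest shortfalls were Olfr191 (-2.21 ± 0.47, 0.0874) and Olfr183 (-2.10 ± 0.53, 0.167).

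**Figure D5:**
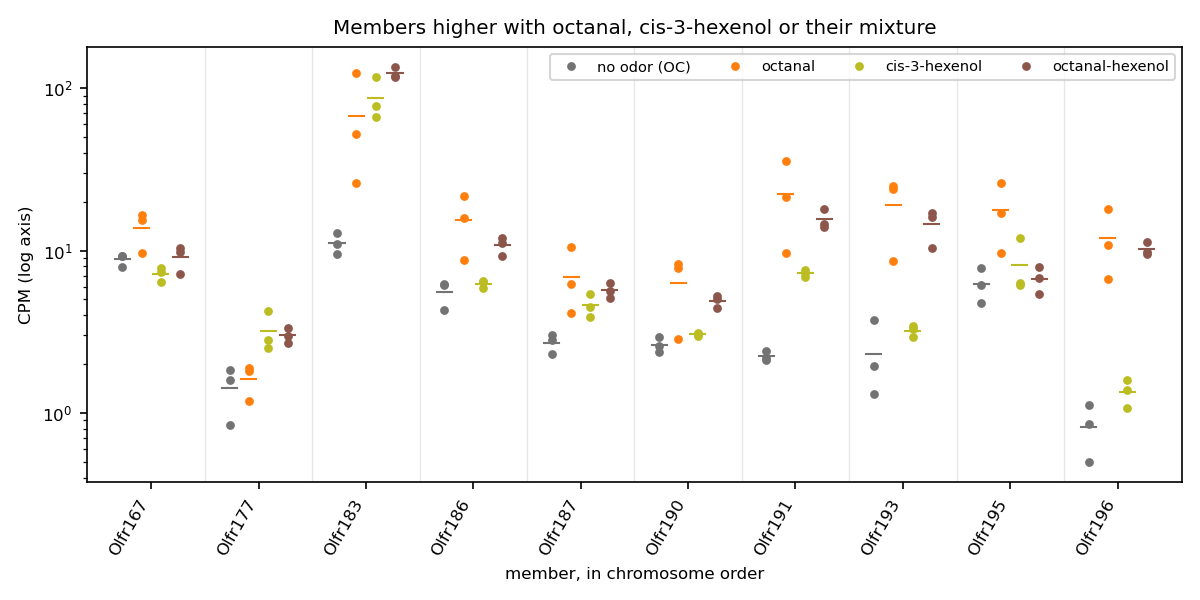
CPM on a log axis in each OC library for the 10 members called higher with octanal, cis-3-hexenol or their mixture, in chromosome order; points are libraries and bars are means of 3. Olfr183 is high in all 3 odor groups, Olfr196, Olfr193 and Olfr191 mainly with octanal and the mixture, and the lowest octanal point of each member called with octanal is library 3.

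Beside these OC results, bone and cartilage markers summed to 2732 to 4491 CPM in controls and 829 to 1987 with octanal, all of them detected, and mature neuron markers to 7108 to 9422 in controls and 18280 to 26340 with octanal. Their part in the member changes was not tested.

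Mint and octanal come from different sets and share no controls. Of the 14 members higher with mint and the 9 higher with octanal, 6 were on both lists: Olfr183, Olfr186, Olfr187, Olfr191, Olfr193 and Olfr196. That is 42.9% of the mint list and 66.7% of the octanal list; for other receptors the shares were 38.3% and 20.6% (36 genes), and for all genes 67.1% and 26.1% (915 genes). The lists were not limited to genes tested in both sets: Olfr194, on the mint list, was not tested in the OC set. Members did not rank alike with mint and octanal. Olfr196 had the largest octanal change (3.86) and 1 of the smaller mint changes (1.49). Olfr181 and Olfr203, which rose by 3.81 and 4.08 with mint, changed by 0.33 ± 0.34 and -1.13 ± 0.94 with octanal and did not pass. The summed value of Olfr194 and Olfr203 was lower with octanal (-2.06 ± 0.72, adjusted p = 0.0381), which is not a call of Olfr203 itself. Olfr181 measured 3.17, 3.96 and 4.72 CPM in OC controls and 6.51, 3.54 and 4.76 under octanal, with overlap. Olfr169 measured 9.62, 7.735 and 8.79 in OC controls and 11.8, 7.80 and 11.0 under octanal, and Olfr171 6.84, 4.19 and 3.15 in controls and 6.11, 5.375 and 7.46 under octanal, also with overlap.

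In the AD set no member was higher in any comparison with controls. Acetophenone, an aromatic ketone, called none of 32 in edgeR (5.49% of all genes called, 4.22% higher and 1.27% lower; unadjusted p under 0.05 in 3 higher and 1 lower), whereas 110 of 836 other receptors were higher. DESeq2 called Olfr195, which measured 5.445, 4.14 and 3.04 CPM in controls and 8.53, 9.74 and 8.47 under acetophenone, without overlap (edgeR 1.08 ± 0.38, adjusted p = 0.115).

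Decanal lowered 3 members, all in the run Olfr164 to Olfr171, and raised none (22.3% of all genes called, 10.8% higher and 11.5% lower; unadjusted 0 higher and 8 lower; DESeq2 0 and 4). Markers of globose basal and precursor cells, 4 of 4 detected, summed to 139.8 to 176.7 CPM with decanal and 141.9 to 163.7 with the mixture against 239.4 to 248 in controls. Mki67 of this list went the other way, at 7.17 CPM in controls, 11.9 with decanal and 11.6 with the mixture. The part of these markers in the result was not tested. Olfr169 measured 33.75, 21.1 and 28.2 CPM in AD controls, 30.3, 22.2 and 31.1 under acetophenone, 8.997, 13.1 and 11.1 under decanal and 7.60, 12.6 and 11.15 under the mixture. Controls and acetophenone overlapped, and all decanal and mixture libraries were below both. The decanal change was -1.33 ± 0.22 (adjusted p = 0.00102) and the mixture change -1.41 ± 0.22 (0.000751). Summed with its near copies the changes were -0.996 ± 0.18 with decanal (0.00173) and -1.002 ± 0.18 with the mixture (0.00183).

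Olfr166 measured 37.4, 36.3 and 32.7 CPM in AD controls, 20.2, 24.8 and 17.05 under decanal and 15.6, 27.7 and 22.3 under the mixture (-0.78 ± 0.21, adjusted p = 0.0179, and -0.69 ± 0.21, 0.0317). The Olfr166 mixture call ended with the replicate number as a block (0.0506) and without control 1, 2 or 3 or mixture 1 or 3 (0.0516 to 0.112). Olfr167 went from 16.6, 8.905 and 9.99 to 6.59, 7.15 and 6.16 under decanal (-0.83 ± 0.25, 0.0283). Controls and decanal did not overlap in either gene. Olfr168 was lower with the mixture, at 7.50, 11.3 and 7.79 against 21.8, 11.15 and 29.4 with overlap (-1.23 ± 0.31, 0.0121). The sum of the near copies Olfr166 and Olfr168 was lower with decanal (-0.81 ± 0.20, adjusted p = 0.00927) and with the mixture (-0.87 ± 0.20, 0.00677). The mixture thus gave 0 higher and 3 lower members (21.4% of all genes called, 10.9% higher and 10.4% lower). The decanal count was 1 without control 1 or decanal 3, with Olfr166 at 0.0561 and 0.0718 and Olfr167 at 0.16 and 0.0808. The decanal call of Olfr166 also ended without control 2 (0.0523) or decanal 1 (0.0596). That of Olfr167 also ended without decanal 1 (0.0783) or decanal 2 (0.0577). The mixture count was 1 without control 3 or mixture 3.

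Acetophenone exceeded decanal for 7 of 32 members (21.9%), near the 21.2% of other receptors called higher. Of all genes 16.5% were called higher and 29.5% in either direction. The members were led by Olfr169 (1.34 ± 0.22, adjusted p = 0.000565), Olfr201 (2.57 ± 0.65, 0.00871, and 3.19 without decanal 1), Olfr166 (0.83 ± 0.21, 0.00943), Olfr168 (1.102 ± 0.31, 0.015) and Olfr199 (2.34 ± 0.74, 0.0283). Olfr196 and Olfr204 were the others. The count was 4 without acetophenone 2, decanal 1 or decanal 3, where Olfr199 stood at adjusted p = 0.0757 to 0.109. Near copies summed passed for Olfr166 with Olfr168 (0.93 ± 0.20, 0.00292) and for Olfr199 with Olfr201 (2.50 ± 0.50, 0.00211). The mixture was below acetophenone for Olfr166, Olfr168 and Olfr169 (-0.75, -1.45 and -1.42), and DESeq2 gave 0 higher and 6 lower. Called in either direction were 9.38% of members, 18.3% of other receptors and 25.7% of all genes. The call of Olfr166 ended without acetophenone 1 (0.0861) or mixture 1 (0.0713) and with receptor scaling (0.0542). With near copies summed, Olfr166 and Olfr168 together were lower in the mixture (-0.99 ± 0.20, adjusted p = 0.00235), and so were Olfr199 and Olfr201 together (-1.46 ± 0.47, 0.0358). It differed from decanal for no member in edgeR (0.287% of all genes called; no member at unadjusted p under 0.05 or by DESeq2), and the AD interaction called none (0.241%; unadjusted 2 higher and 0 lower; DESeq2 none).

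The other members named by the rule showed no call in the AD set. Olfr183 measured 10.02, 12.3 and 9.60 CPM in controls, 8.74, 6.20 and 9.735 under acetophenone, 5.98, 8.89 and 6.455 under decanal and 6.57, 10.05 and 12.9 under the mixture. Olfr191 measured 5.60, 2.07 and 3.30, then 4.24, 3.82 and 5.015, then 3.58, 2.76 and 5.42, then 1.47, 2.57 and 5.38. Olfr187 measured 4.25, 4.10 and 3.215, then 4.28, 5.25 and 4.13, then 3.73, 2.86 and 4.09, then 1.03, 2.62 and 3.45. Odor and control libraries overlapped in each case, apart from Olfr183 with decanal, whose 3 libraries lay below the controls without a call (-0.58 ± 0.26, adjusted p = 0.122). Olfr181 ranged from 2.79 to 6.85 and Olfr171 from 3.87 to 8.86 over the 12 AD libraries.

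Octanal and decanal are straight-chain aldehydes of which decanal has the longer chain, and they were given in the same volume for the same time. Each was set against its own controls in a joint fit of 24 libraries; this 1 pair of compounds was compared, and it crosses batches. The octanal response exceeded the decanal response for 8 of 32 members (25%) and was below it for none. Of all genes 29.2% were called, 16.1% higher, and of other receptors 15.3% were called higher. With near copies summed, Olfr190 with Olfr192 also passed (1.52 ± 0.53, adjusted p = 0.0337). The members were Olfr196 (4.43 ± 0.60, adjusted p = 1.01e-05), Olfr183 (3.16 ± 0.51, 7.84e-05; 2.39 without octanal 1), Olfr191 (3.19 ± 0.60, 0.000323), Olfr169 (1.52 ± 0.31, 0.000805), Olfr193 (2.75 ± 0.59, 0.00116), Olfr167, Olfr186 and Olfr187.

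For Olfr169 the changes behind this were 0.23 ± 0.21 with octanal and -1.33 ± 0.22 with decanal, and for Olfr167 they were 0.65 ± 0.22 and -0.83 ± 0.25. The difference for Olfr187 (1.44 ± 0.47, 0.0235) did not pass without decanal 2 (0.0589), OC control 3 (0.0552) or octanal 1 (0.115), nor with libraries scaled to the median receptor gene (0.0746). For Olfr181 the difference was 0.68 (95% interval -0.35 to 1.70) and for Olfr195 1.13 (0.07 to 2.20; adjusted p = 0.122), which does not show that the 2 aldehydes act alike on them.

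The rest of the pathway was read from 22 genes of olfactory transduction and 16 activity-induced genes. Transduction genes called higher numbered 8 with floral, 15 with mint, 13 with floral-mint, 20 for octanal, 12 for cis-3-hexenol, 20 for the OC mixture, 16 for acetophenone, 9 for decanal and 10 for the AD mixture; 1 was lower with mint, octanal and the OC mixture each. Gnal, the alpha subunit of Golf, changed by 0.52 ± 0.10 with mint (adjusted p = 0.00347) and 1.29 ± 0.20 with octanal (0.000192), and Omp, the marker protein of mature neurons, by 0.79 ± 0.05 and 1.25 ± 0.20. Median changes over the 22 were 0.48 with mint, 0.27 with floral and 1.36 with octanal, beside 0.74, 0.27 and 0.13 over the members and -0.02, -0.03 and -0.04 over all genes.

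Of the activity-induced genes, 6 were higher with floral and 2 lower, 6 and 0 with mint, 7 and 0 with floral-mint, 9 and 0 for octanal, 2 and 0 for cis-3-hexenol, 8 and 0 with the OC mixture, 3 and 0 with acetophenone, 6 and 2 with decanal and 4 and 2 with the AD mixture. Nr4a1, an immediate-early transcription factor, rose by 1.49 ± 0.24 with floral (adjusted p = 0.00153), 1.80 ± 0.25 with mint (0.000303), 3.81 ± 0.50 with octanal (5.27e-05) and 1.76 ± 0.28 with decanal (0.000684). It rose with decanal, where no member did.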

How the data were processed

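Expected counts per gene, which need not be whole because reads that fit several genes are divided, were deposited by the authors as 1 table for each set of 12 libraries. Per the submitters' processing notes the tools were STAR 2.7.10b, Salmon 1.10.1 and R 4.4.2 and the build was GRCm39; the annotation and the tool that gave the counts are not given in the sources used here. Per the labels' protocols the libraries were TruSeq stranded mRNA, made from phospho-S6 precipitates.

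Gene identifiers were named from GENCODE vM21, a GRCm38 annotation used for names, neighbour order, transcripts and coding sequences, so no gene coordinates are given other than those of the printed RefSeq windows. Of 57010 identifiers 52029 had a name; the 4981 others, which held 0.284% to 0.650% of a library's counts, stayed in the library sizes and tests. Counts were rounded. Each set was fitted separately over its 4 groups with edgeR 4.0.16 (R 4.3.3, limma 3.58.1): filterByExpr with a minimum count of 10 and a minimum total of 15, TMM scaling, the quasi-likelihood test, a prior count of 0.125 and Benjamini-Hochberg adjustment over all genes tested. The octanal and decanal responses were compared in 1 fit of both sets. There were 22 comparisons. CPM were computed from the counts with TMM library sizes.

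Near-identical transcripts were found with blastn 2.17.0 and protein identities computed with Biopython 1.88 in Python 3.11.15. Alternatives were DESeq2 1.42.0, its size factors in edgeR, scaling to the median receptor gene, no filter on low counts, near-identical members summed, a replicate block and leaving out each library. No 2 libraries were identical. Same-numbered libraries did not deviate together in any comparison (no comparison had every correlation above 0.1), so the numbers were not taken to pair mice.

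The members and the gene lists were chosen with earlier results of these data known. Library values are given for 7 members listed by the rule (Olfr167, Olfr169, Olfr171, Olfr181, Olfr183, Olfr187, Olfr191) and for members called against controls without overlap, up to 10 per odor by p; in other comparisons up to 5 called members each way are named.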

Additional observations from a re-analysis of the deposited data

Results flagged for a closer look

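The octanal and decanal responses, each against its own controls, differed for 8 members by edgeR's test of the difference itself in the joint fit of 24 libraries, with Benjamini-Hochberg adjustment. All 8 were higher with octanal, 25% of the members tested. Called higher were 15.3% of other receptors and 16.1% of all genes, and 29.2% of all genes were called in either direction. Whether these shares differ was not tested. Octanal minus decanal on the log2 scale was 4.43 for Olfr196, 3.19 for Olfr191, 3.16 for Olfr183, 2.75 for Olfr193, 1.80 for Olfr186, 1.52 for Olfr169, 1.46 for Olfr167 and 1.44 for Olfr187. The aldehydes were tested in different batches, so compound and batch cannot be told apart beyond what each set's own controls remove. Beside these differences, red blood cell markers were below controls with octanal (7454 to 23200 against 78080 to 92660 CPM) and above controls with decanal (39360 to 42140 against 15520 to 20990 CPM); their part in the result was not tested.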

How the results depend on the processing

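None of the 117 calls of named members (114 with DESeq2) changed direction under DESeq2, its size factors, receptor scaling, no filter on low counts, the replicate block or leaving out a library. DESeq2 gave 1 member in place of 0 with acetophenone, 6 in place of 3 for the AD mixture against acetophenone, 4 in place of 2 with cis-3-hexenol, 6 in place of 3 for floral-mint against mint, 1 in place of 0 for the OC mixture against octanal and 2 in place of 0 for the OC interaction. Without a filter on low counts these were 1, 4, 3, 8, 2 and 3, and the OC mixture against cis-3-hexenol gave 5 in place of 3. With near copies summed, 4 values were called with floral in place of 7 and 9 with floral-mint in place of 14. Summing merges called members, such as Olfr169, Olfr170 and Olfr171, into 1 value, so these counts are not of like units. Scaled to the median receptor gene, cis-3-hexenol gave 4 in place of 2, and 11 of 117 calls of named members no longer passed. Apart from the merging of near copies, the cause of these changes was not tested.

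With the replicate number as a block, 6 members were called for acetophenone against decanal in place of 7 and 6 for the FM interaction in place of 7; the other counts were the same as without it, for example 14 with mint and 9 with octanal. Of the 117 calls of named members 3 ended: Olfr166 with the AD mixture (adjusted p = 0.0506), Olfr198 in the FM interaction (0.0667) and Olfr204 for acetophenone against decanal (0.0631). In the AD mixture another member came in, so the count stayed at 3. The numbers were not taken to pair the mice.

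Leaving out 1 library gave 4 to 6 members for acetophenone against decanal, 1 to 3 with decanal, 1 to 4 with the AD mixture, 4 to 8 for the FM interaction, 1 to 2 with cis-3-hexenol, 0 to 1 for the OC mixture against octanal and 0 to 2 for the OC interaction (1 without octanal 2 and 2 without octanal 3). Of 792 such refits of named calls, 110 no longer passed. A member that did not pass is not shown to be unchanged.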
